A study of Mus musculus with 106 samples.

Results

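The Klf genes encode transcription factors of the Krüppel-like family, and 10 of them were read here: Klf2, Klf3, Klf4, Klf6, Klf7, Klf9, Klf10, Klf11, Klf13 and Klf16. They are a set given by name, with no threshold on a measured value, out of 21938 protein-coding genes of the mouse annotation on GRCm38. For each gene the promoter was the stretch 1000 bp to either side of any of its transcription start sites, and the window was the gene body with 20 kb of flank on each side, which gave windows of 42.6 kb for Klf2 to 133 kb for Klf7. Other protein-coding genes lie in 4 of the 10 windows: Eps15l1 and Gm10282 beside Klf2, Cys1 beside Klf11, E030018B13Rik inside Klf13, and Abhd17a and Rexo1 beside Klf16. Noncoding genes were not read.

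Krüppel-like factors bind GC boxes and CACCC boxes through a zinc finger domain at the end of the protein that all members share, while the rest of the protein differs and decides whether a member activates or represses. Klf2, Klf4, Klf6 and Klf7 are known mainly as activators, Klf3 represses through CtBP proteins, and Klf9, Klf10, Klf11, Klf13 and Klf16 carry a region that recruits the Sin3A corepressor. In myeloid cells Klf4 is known for its part in monocyte differentiation, Klf2 for restraining inflammatory genes and Klf6 for promoting them.

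The lists of regions carrying 2 histone marks were available from C57BL/6J mice, 35 lists for H3K27ac, the acetylation found at active promoters and enhancers, and 35 for H3K4me3, the methylation found at promoters. Each mark was measured in 6 control and 6 diabetic libraries of hematopoietic stem cells (HSC), 6 and 5 of unstimulated bone marrow-derived macrophages (BMDM), and 6 and 6 of BMDM stimulated with LPS and IFN-γ, and 36 further samples were input chromatin with no list of their own. Mice entered the control or the diabetic group at an age of 12 to 14 weeks. Diabetic mice received streptozotocin (STZ), which destroys pancreatic beta cells, at 42 to 45 mg/kg on 5 days, and those with blood glucose above 13.9 mmol/l were used 6 weeks later. HSC were bone marrow cells left after removal of cells with lineage markers, and so a mixed population that includes progenitors; BMDM were grown for 7 days in 5 mmol/l glucose with medium from L929 cells and then kept for 16 h with or without LPS at 100 ng/ml together with IFN-γ at 10 ng/ml, so that control and diabetic cells shared the same culture glucose.  In bulk chromatin, fewer cells carrying a mark and less of the mark per cell cannot be told apart.

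The lists held between 13730 and 277213 peaks, and HSC lists for H3K4me3 were the shortest, with a median of 27.6 Mb covered against 66.4 Mb in unstimulated BMDM. Marker promoters in H3K27ac differed between the labelled cell types. The summed promoter level of 8 stem and progenitor genes (Kit, Cd34, Gata2, Meis1, Hlf, Mecom, Myb, Flt3), in log2 units of the rank described below, ranged from 4.31 to 9.58 in HSC and from 0 to 5.20 in unstimulated BMDM. That of 8 macrophage genes ranged from 0.189 to 2.47 in HSC and from 4.01 to 18.8 in unstimulated BMDM. Erythroid genes had a median of 6.61 in HSC and 3.16 in unstimulated BMDM, granulocyte genes 0.801 and 0.677, and lymphoid genes 0 in both. In the tests used below, 4 of 4 erythroid genes were higher in HSC in rank and 3 of 4 in covered length, and of 4 lymphoid genes 3 were higher in covered length and none could be tested in rank, while 34.1% of all genes passed in rank and 47.6% in covered length in either direction. The part of these cells in the results was not tested.

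In H3K27ac, 3 control BMDM libraries went against their labels at Nos2, the inducible nitric oxide synthase of stimulated macrophages. Nos2 had 2.89 kb of scaled covered length in the library labelled stimulated control replicate 5, against 12.1 to 28.6 kb in the other 11 stimulated libraries. The libraries labelled unstimulated control replicates 5 and 6 had 20.9 and 11.1 kb, against 2.99 to 8.13 kb in the other 9. In H3K4me3 the libraries of the same names lay inside the range of their groups, with 4.92 kb against 1.96 to 13.2 kb and with 6.71 and 5.78 kb against 1.74 to 7.67 kb. The 3 were picked by Nos2 alone. In the summed H3K27ac promoter level of 8 genes of stimulated macrophages, Nos2 included, stimulated control replicate 5 was lowest of its state, at 5.47. Unstimulated control replicate 6 was highest of its state, at 9.24. Unstimulated control replicate 5 was at 4.19, below the unstimulated median of 5.27, and so did not go against its label there. All libraries were kept as labelled, and the H3K27ac results of the Klf genes on stimulation and the calls between cell states were recomputed without these 3 libraries.

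The sequences just before the transcription start are shown for 5 members whose promoter passed a test described below: Klf2 on stimulation, and Klf4, Klf6, Klf9 and Klf11 between cell states. They are RefSeq promoter sequences on GRCm38.p6, printed 5′ to 3′ on the strand of the gene and ended where the first annotated exon begins, so that some are shorter than 250 bases, with capitals for CCNCNCCC, a CACCC-type box, and GGGCGG, a GC box, on either strand; a stretch can match both. They lie at chr8:72318812-72319032 for Klf2, chr4:55532476-55532725 for Klf4, chr13:5861239-5861481 for Klf6, chr19:23140976-23141225 for Klf9 and chr12:24651121-24651273 for Klf11.
Klf2: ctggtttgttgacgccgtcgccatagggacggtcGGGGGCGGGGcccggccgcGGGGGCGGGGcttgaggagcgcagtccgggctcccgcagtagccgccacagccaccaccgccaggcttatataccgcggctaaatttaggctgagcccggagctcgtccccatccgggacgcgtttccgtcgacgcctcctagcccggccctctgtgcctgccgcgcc
Klf4: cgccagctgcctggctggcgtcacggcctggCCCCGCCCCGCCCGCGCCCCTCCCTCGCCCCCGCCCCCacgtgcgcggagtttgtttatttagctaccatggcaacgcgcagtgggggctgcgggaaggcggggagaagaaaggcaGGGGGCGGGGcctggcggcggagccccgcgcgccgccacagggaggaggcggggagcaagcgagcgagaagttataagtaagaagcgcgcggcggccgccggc
Klf6: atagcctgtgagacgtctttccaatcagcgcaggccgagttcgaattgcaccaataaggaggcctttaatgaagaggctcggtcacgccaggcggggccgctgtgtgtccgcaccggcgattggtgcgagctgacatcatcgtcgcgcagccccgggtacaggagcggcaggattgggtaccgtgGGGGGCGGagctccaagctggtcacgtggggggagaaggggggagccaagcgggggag
Klf9: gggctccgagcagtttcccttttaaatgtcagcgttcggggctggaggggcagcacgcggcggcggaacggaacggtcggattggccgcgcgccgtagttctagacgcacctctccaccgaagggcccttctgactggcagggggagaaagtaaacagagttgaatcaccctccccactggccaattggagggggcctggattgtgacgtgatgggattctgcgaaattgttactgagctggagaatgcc
Klf11: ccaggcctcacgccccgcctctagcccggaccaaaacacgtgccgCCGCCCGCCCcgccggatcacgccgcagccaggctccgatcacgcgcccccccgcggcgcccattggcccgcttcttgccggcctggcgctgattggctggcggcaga

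In the 250 bases before the RefSeq start, for which 8 of the 10 genes had an entry, the Klf4 promoter held 9 matches to CCNCNCCC and 4 to GGGCGG, Klf2 held 4 and 2, Klf6 held 2 and 1 with 4 matches to CCAAT, and Klf11 held 5 and 4. The Klf9 promoter held none of either, and instead had 3 matches to CCAAT and 1 to TTCNNNGAA, a STAT-type site. Among the members not printed, Klf3 held 10 and 6 matches, Klf7 held 8 and 1, and Klf13 held 5 and 3. No entry was found for Klf10 and Klf16. These counts cover all 250 bases, while 221 were printed for Klf2, 243 for Klf6 and 153 for Klf11. The part not printed begins in an annotated exon, and most of the CCNCNCCC and GGGCGG matches counted at Klf11 lie there. Over 32851 promoters of the same length, 45.9% held at least 1 CCNCNCCC, 32.7% a GGGCGG, 33.8% a CCAAT and 7.02% a TTCNNNGAA. The letters are a description of the sequence and not evidence of binding.

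All 10 promoters carried an H3K27ac peak in every one of the 35 lists. The level of a promoter was read as the rank of its best peak by the deposited −log10 p-value, rank 1 being the strongest of a library, because the p-values themselves depend on the depth of each library. In HSC the order by median rank was Klf7 at 241.5, Klf13 at 598, Klf6 at 800, Klf11 at 888, Klf3 at 1581.5, Klf9 at 3197, Klf2 at 3768, Klf10 at 4268, Klf16 at 4747.5 and Klf4 at 5512.5. In unstimulated BMDM Klf7 and Klf13 again led, at 333 and 468, and Klf10 at 1691 and Klf4 at 2293 stood above Klf11 and Klf6, at 3608 and 3792. In stimulated BMDM the order began with Klf13 at 339.5, Klf7 at 796 and Klf4 at 1386 and ended with Klf2 at 9342 and Klf16 at 9826. Neighbours in each order had ranges of rank over the libraries that overlapped.

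**Figure D1:**
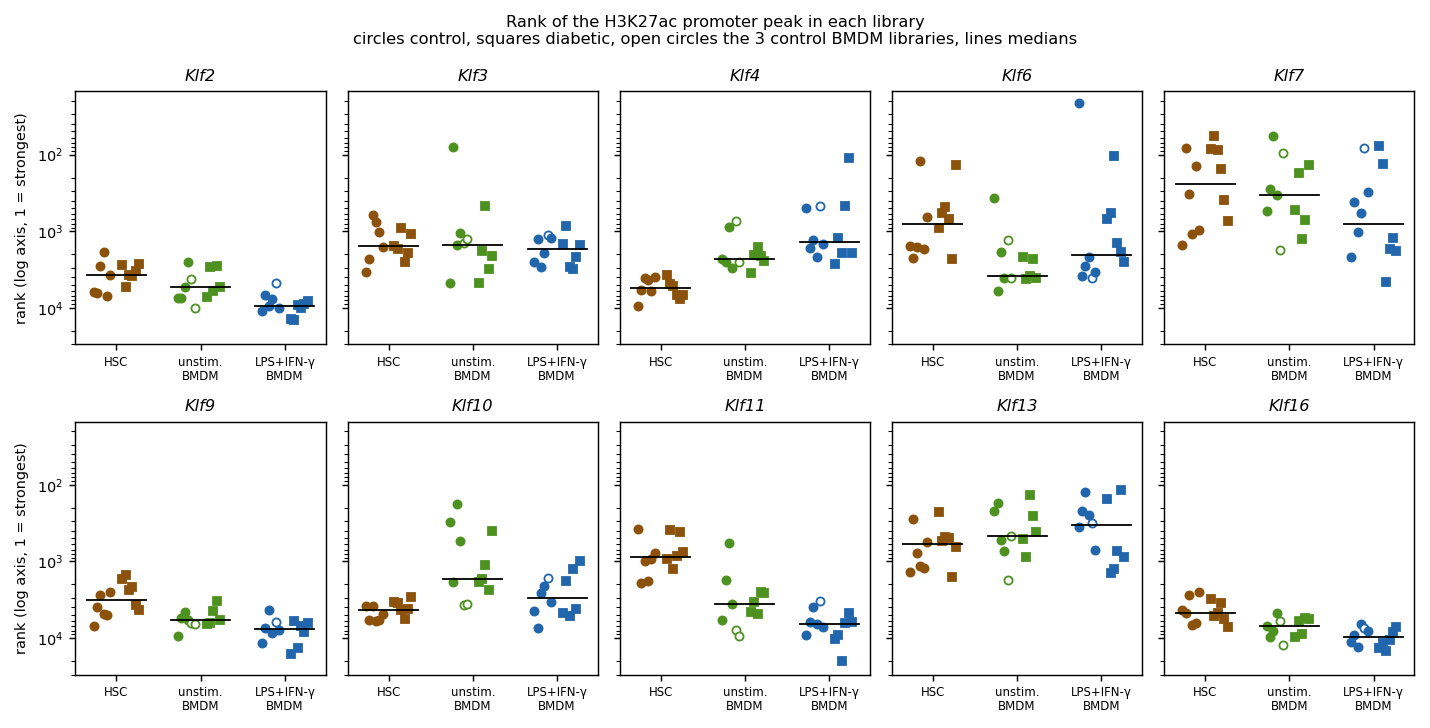
Each panel plots 1 Klf gene, with the rank of its H3K27ac promoter peak on a log axis (1 at the top is the strongest peak of the library) for every library, split by HSC, BMDM without stimulus and stimulated BMDM (circles control, squares diabetic, open circles the 3 control BMDM libraries, lines medians). Klf4 is the gene whose HSC libraries, at ranks 3743 to 9582, all lie below its unstimulated BMDM libraries, at 736 to 3557.

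The first question was whether the Klf promoters differ between HSC and macrophages grown from bone marrow. H3K27ac at Klf11, Klf6, Klf9 and Klf16 stood nearer the top of the lists in HSC, and that at Klf10 and Klf4 nearer the top in unstimulated BMDM. In limma's test over 13102 genes 6 of 10 members passed an adjusted p of 0.05, 4 higher and 2 lower in HSC, while 34.1% of all genes passed. Differences are given as log2 units of 20000 divided by the rank, so that a positive value is a better place in HSC, and the median over all genes was 0.14.

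Among the activators, Klf4 had H3K27ac ranks with a best of 3743, a median of 5512.5 and a worst of 9582 in HSC, against 736, 2293 and 3557 in unstimulated BMDM. All 12 HSC libraries ranked the Klf4 promoter lower than all 11 BMDM libraries did, a difference of -1.47 (SE 0.39, adjusted p = 0.0031) that was -1.38 (adjusted p = 0.0075) without the 3 control libraries and missed the threshold within diabetic libraries (-1.33, adjusted p = 0.10). The share of all genes whose libraries separated as fully is not given, here or for the members below. A full separation therefore cannot be called particular to a Klf gene. Klf6 had a best, median and worst rank of 122, 800 and 2290 in HSC and of 365, 3792 and 5954 in unstimulated BMDM. The groups overlapped, and 7 of 11 BMDM libraries ranked Klf6 below every HSC library, with a difference of 1.76 (SE 0.68, adjusted p = 0.040) that missed the threshold without the 3 control libraries (1.73, adjusted p = 0.064) and without any 1 of 11 single libraries (adjusted p from 0.052 to 0.085). Klf2 and Klf7 did not pass, with differences of 0.39 (SE 0.24) and 0.35 (SE 0.71), and for Klf7 the ranks ran from 58 to 1530 in HSC and from 57 to 1747 in BMDM.

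Klf3, the member that works through CtBP, had nearly the same median rank in both states, 1581.5 and 1509, and a difference of -0.04 (SE 0.46). Its lowest and highest places in unstimulated BMDM, 4757 and 79, both came from control libraries.

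Of the members that recruit Sin3A, Klf11 and Klf10 went opposite ways. Klf11, also known as a TGF-β-inducible gene, had a best, median and worst rank of 381, 888 and 1908 in HSC and of 574, 3608 and 9485 in unstimulated BMDM. In 9 of 11 BMDM libraries it stood below every HSC library, and the difference was 2.04 (SE 0.37, adjusted p = 3.4e-05), or 1.70 (SE 0.36, adjusted p = 0.00040) without the 3 control libraries. Klf10, the closest relative of Klf11 and equally TGF-β-inducible, had ranks of 2892, 4268 and 6080 in HSC and of 177, 1691 and 3699 in unstimulated BMDM, a difference of -2.00 (SE 0.42, adjusted p = 0.00025). The 2 BMDM libraries at 3699 and 3617, which alone overlapped with HSC, were the unstimulated control replicates 5 and 6 named above, and without the 3 libraries the difference was -2.49 (SE 0.38, adjusted p = 4.1e-06). Within diabetic libraries it was -1.62 (adjusted p = 0.058).

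Klf9 and Klf16 differed less. Klf9, a factor induced by glucocorticoid and thyroid hormone, had ranks of 1504, 3197 and 7030 in HSC and of 3313, 5862 and 9426 in unstimulated BMDM, a difference of 0.86 (SE 0.23, adjusted p = 0.0038). Klf16 had ranks of 2536, 4747.5 and 7173 against 4771, 6919 and 12328, a difference of 0.69 (SE 0.21, adjusted p = 0.0079). For both genes the groups overlapped, with 6 and 7 of 12 HSC libraries above every BMDM library. Without the 3 control libraries both passed, at 0.84 and 0.65, but Klf9 did not pass within control libraries (0.62, adjusted p = 0.18), nor Klf16 within diabetic libraries (0.55, adjusted p = 0.21). Klf13 did not pass, at -0.66 (SE 0.51, adjusted p = 0.33).

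**Figure D2:**
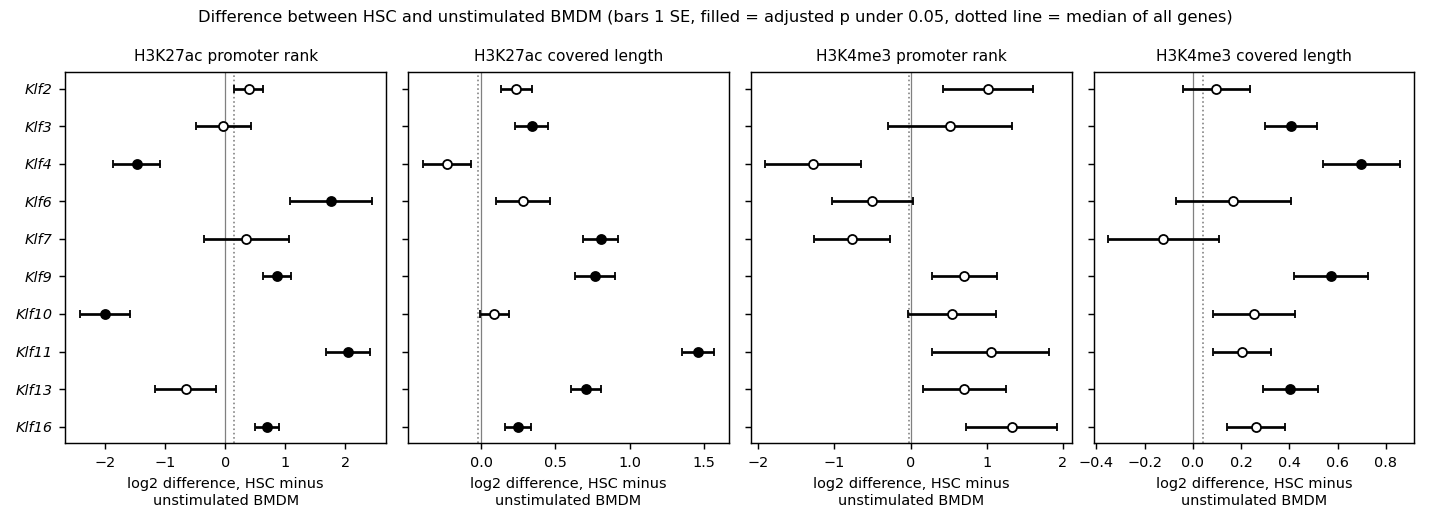
The 4 panels plot the log2 difference between HSC and unstimulated BMDM for each Klf gene in H3K27ac promoter rank, H3K27ac covered length, H3K4me3 promoter rank and H3K4me3 covered length, with bars of 1 SE and filled points where the adjusted p was under 0.05. Klf11 lies farthest to the right in both H3K27ac panels, at 2.04 and 1.46, while Klf10 and Klf4 lie to the left in promoter rank and are open in covered length.

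The covered length, the kb of a window that lay under listed peaks, scaled to the same total for every library of a mark, gave a different view of the neighbourhood of each gene. Over the windows, 6 of 10 members carried more H3K27ac in HSC and none less. Of all 20186 genes tested 47.6% passed in either direction, 23% as higher and 24.6% as lower in HSC. By share of the window covered, taken before scaling, Klf16 was the most covered in HSC at a median of 35.6%, followed by Klf13 at 28.3%, and Klf7 the least at 5.5%. The windows differ in length, and those of Klf16 and Klf13 hold other genes too, so this order is not one of the Klf genes alone.

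Klf11 showed the largest difference of the 10. Its scaled covered length had a lowest, median and highest value of 7.34, 9.61 and 14.7 kb in HSC, of 2.37, 3.44 and 4.95 kb in unstimulated BMDM, and of 2.22, 3.02 and 3.61 kb in stimulated BMDM. Every HSC library lay above every BMDM library, with a difference of 1.46 on the log2 scale with 0.5 kb added (SE 0.11, adjusted p = 4.5e-13). How common such a separation was among all genes is not given here. With the gene body alone without its flanks, the difference was 0.36 (adjusted p = 0.051).

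Klf13, an activator of the chemokine gene Ccl5 in T cells, had 22.8, 27.2 and 38.8 kb in HSC and 13.3, 16.6 and 21.3 kb in unstimulated BMDM, again with no overlap, and a difference of 0.71 (SE 0.099, adjusted p = 3.4e-07). Klf9 had 7.46, 9.92 and 16.8 kb against 4.39, 5.05 and 8.08 kb, with 11 of 12 HSC libraries above every BMDM library and a difference of 0.77 (SE 0.13, adjusted p = 1.5e-05). Klf7 had 6.80, 7.95 and 13.3 kb against 3.62, 4.41 and 8.25 kb, a difference of 0.81 (SE 0.12, adjusted p = 8.2e-07). The BMDM library of 8.25 kb was the unstimulated control replicate 5, and the other 10 were all below every HSC library. Klf7 and Klf13 thus passed in covered length and not in promoter rank.

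Klf3 and Klf16 differed less, by 0.34 (SE 0.11, adjusted p = 0.011) and 0.25 (SE 0.088, adjusted p = 0.018), and their calls were lost without the scaling, at adjusted p = 0.24 and 0.52. Klf4, Klf10, Klf2 and Klf6 did not pass, at -0.23 (SE 0.16), 0.09 (SE 0.10), 0.24 (SE 0.11) and 0.28 (SE 0.18). Klf4 had 4.18, 4.73 and 7.44 kb in HSC and 3.54, 5.53 and 11.7 kb in unstimulated BMDM, the highest of which was again control replicate 5, and the gene passed as lower in HSC without scaling (-0.29, adjusted p = 0.0495) and among the 20000 strongest peaks (-0.21, adjusted p = 0.035). Of all genes called, 48.3% were higher in HSC with the scaling and 73.8% among the 20000 strongest peaks, where the median of all genes was 0.14 and 5 members were higher and 1 lower. Without the 3 control libraries the same 6 members passed, with differences from 0.27 for Klf16 to 1.45 for Klf11.

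**Figure D3:**
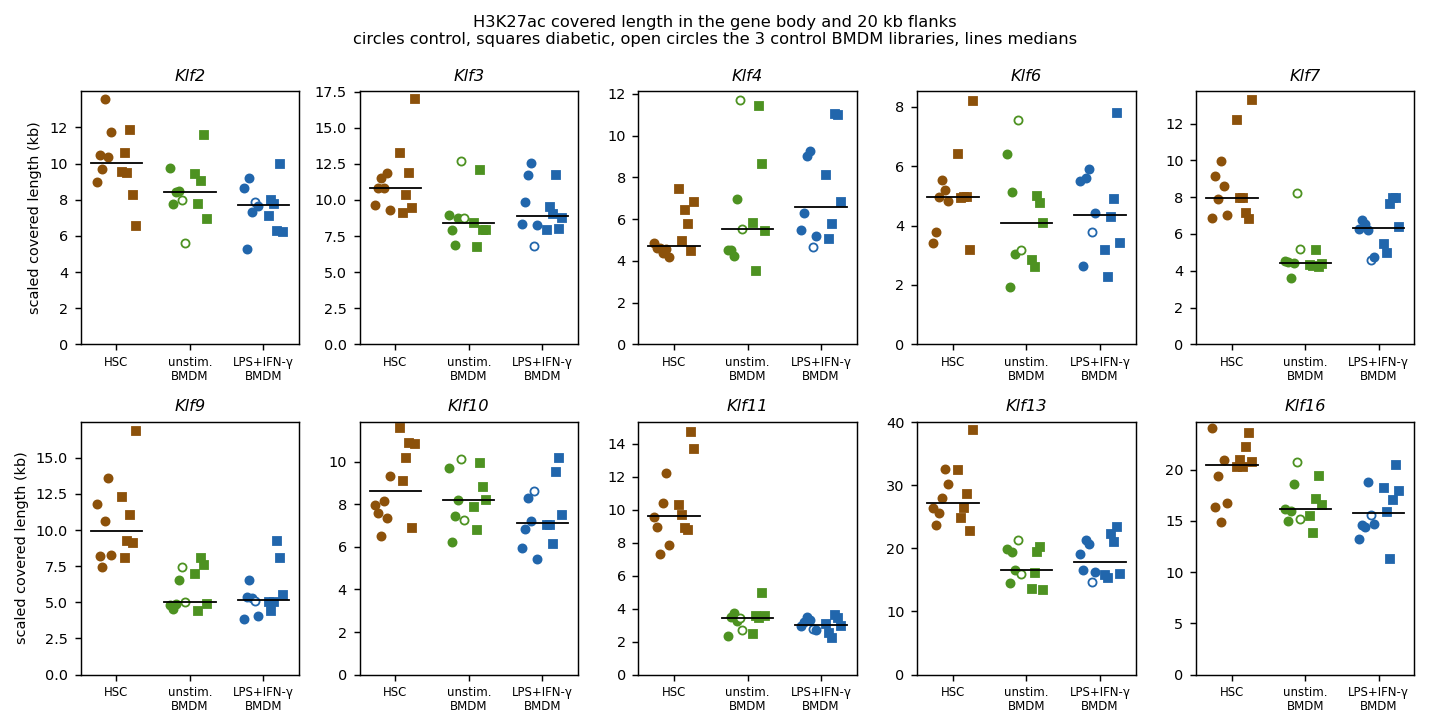
Each panel plots 1 Klf gene, with the scaled H3K27ac covered length of its window in kb from 0 for every library, split by cell state (circles control, squares diabetic, open circles the 3 control BMDM libraries, lines medians). In Klf11 the 12 HSC libraries lie at 7.34 to 14.7 kb and the 23 BMDM libraries at 2.22 to 4.95 kb.

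The distal elements under these lengths were merged from the 20000 strongest H3K27ac peaks of each library and lay over 1000 bp from every protein-coding start. An element is called intergenic where it touched no protein-coding gene. Of 27703 such elements in the genome 40 fell in the Klf windows, 10 of them at Klf13, 5 each at Klf2, Klf6 and Klf11, 3 each at Klf3, Klf7 and Klf10, and 2 each at Klf4, Klf9 and Klf16. Between HSC and unstimulated BMDM 22 of the 40 had enough holders to be tested with Fisher's exact test, and 6 passed after adjustment over 10928 elements, of which 33.4% passed.

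The smallest adjusted p was at Klf9. An element in the intron of Klf9, 7581 bp from its start at chr19:23151225-23153679, was held by 11 of 12 HSC libraries and by 0 of 11 unstimulated and 1 of 12 stimulated BMDM libraries (exact adjusted p = 0.00027). Where peaks had to cover 50% of the element it was held by 2 of 12 HSC libraries and could not be tested. A second element, 4284 bp from the start, was held by all 35 libraries. At Klf6, an intergenic element 15798 bp from the start, at chr13:5845051-5845684, was held by 10 of 12 HSC libraries, 1 of 11 unstimulated and 0 of 12 stimulated BMDM libraries (exact adjusted p = 0.0058).

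At Klf13, an intergenic element 15874 bp from the start, at chr7:63954789-63957927, was held by 7 of 12 HSC and by no BMDM library (exact adjusted p = 0.020), and one on an exon of E030018B13Rik, 4566 bp from the start, by 6 of 12 HSC libraries and 0 of 11 (exact adjusted p = 0.041, or 0.056 without the 3 control libraries). A Klf13 intron element 22153 bp from the start went the other way, held by 0 of 12 HSC and 6 of 11 unstimulated BMDM libraries (exact adjusted p = 0.020). Among the 40000 strongest peaks the element at this place was held by 3 of 12 and 8 of 11, and the call was lost (exact adjusted p = 0.10). Where 50% had to be covered it was held by 0 of 12 and 3 of 11 and could not be tested. There the intergenic and exon elements of Klf13 lost their calls too (exact adjusted p = 0.16 and 0.0504). An element on an exon of Klf10, 1398 bp from the start, was held by 0 of 12 HSC and by 5 of 11 unstimulated and 5 of 12 stimulated BMDM libraries (exact adjusted p = 0.041). The call of this Klf10 element was lost in 17 of 23 runs that left out 1 library, at exact adjusted p from 0.069 to 0.073, and where 50% had to be covered (exact adjusted p = 0.086), and that of the exon element at Klf13 in 6 of 23. Of the 6 elements, 4 were thus held more often by HSC, and 2, the Klf13 intron element and the Klf10 exon element, more often by unstimulated BMDM.

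The Klf11 window held 5 intergenic elements, 4894 to 16757 bp from the start, that were seen in HSC alone: 5, 4, 3, 2 and 5 of 12 HSC libraries in order of distance, and 0 of 23 BMDM libraries. None passed singly, with an exact adjusted p of 0.078 for the 2 held by 5 libraries. Elements held by HSC alone also lay in the windows of Klf7, Klf13 and Klf16. The share of all elements in the genome held by HSC alone is not given here, so the pattern cannot be called particular to Klf11. The count of 0 of 23 covers only the 20000 strongest peaks of each library and not weaker acetylation. Across the strictness of the lists the count of 6 changed to 2 among the 10000 strongest peaks of each library, to 11 among the 40000 strongest, and to 1 where a peak had to cover 50% of the element.

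The sequences of 3 elements seen mainly in HSC are shown as 300 bases around the median summit, on the plus strand of GRCm38.p6, at chr19:23151684-23151983 for Klf9, chr13:5845213-5845512 for Klf6 and chr7:63956519-63956818 for Klf13. Capitals mark the same boxes as above and also TGANTCA, an AP-1-type site, which was added after the sequences had been seen.
Klf9 intron: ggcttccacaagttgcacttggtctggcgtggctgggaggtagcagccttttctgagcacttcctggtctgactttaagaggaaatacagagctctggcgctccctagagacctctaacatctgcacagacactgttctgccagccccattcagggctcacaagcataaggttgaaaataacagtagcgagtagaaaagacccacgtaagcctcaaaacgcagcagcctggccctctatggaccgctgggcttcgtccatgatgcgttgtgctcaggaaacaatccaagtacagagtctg
Klf6 upstream: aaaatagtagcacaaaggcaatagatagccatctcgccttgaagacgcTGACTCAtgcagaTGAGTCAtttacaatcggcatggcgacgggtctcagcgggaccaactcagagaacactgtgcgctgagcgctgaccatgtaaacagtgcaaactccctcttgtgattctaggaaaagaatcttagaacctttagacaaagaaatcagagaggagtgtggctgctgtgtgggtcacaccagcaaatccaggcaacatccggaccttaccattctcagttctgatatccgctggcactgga
Klf13 upstream: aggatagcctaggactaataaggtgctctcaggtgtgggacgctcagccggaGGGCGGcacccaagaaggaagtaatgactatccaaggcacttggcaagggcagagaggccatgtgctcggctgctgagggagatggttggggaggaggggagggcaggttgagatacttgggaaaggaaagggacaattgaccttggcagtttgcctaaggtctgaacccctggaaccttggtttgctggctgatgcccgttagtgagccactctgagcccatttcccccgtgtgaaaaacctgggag

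The Klf6 element held 2 matches to TGANTCA and 1 to TTCNNNGAA, the Klf13 element 1 to GGGCGG, and the Klf9 element none of the motifs searched. Over all 27703 elements read in the same way, 6.65% held a TGANTCA, 5.84% a TTCNNNGAA, 19.4% a GGGCGG and 43.2% a CCNCNCCC.

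**Figure D4:**
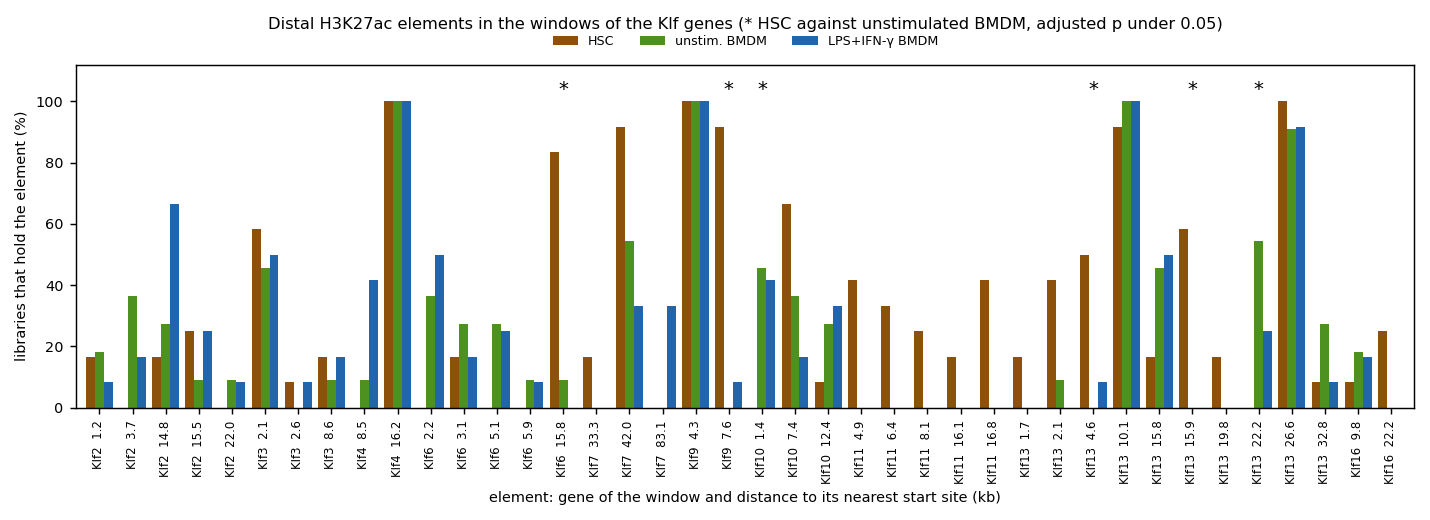
Bars give, for each cell state, the percent of libraries that hold each of the 40 distal H3K27ac elements, ordered by gene and distance to its nearest start in kb, with asterisks over the 6 that passed. The element of Klf9 at 7.6 kb and that of Klf6 at 15.8 kb have tall HSC bars. The 5 of Klf11 have HSC bars alone, as do some of Klf7, Klf13 and Klf16.

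The second question was what LPS and IFN-γ changed in BMDM. The summed promoter level of 8 genes of stimulated macrophages ran from 3.20 to 9.24 in unstimulated and from 5.47 to 9.03 in stimulated BMDM, and these ranges overlap. The Klf2 promoter fell in H3K27ac and was the 1 member of 10 that passed, against 2.53% of 13102 genes. Before adjustment, 6 of 10 members had a p under 0.05 in limma's test, beside 2252 of 13102 genes. Of the 10 differences 7 were lower and 3 higher on stimulation. The best, median and worst ranks of Klf2 were 2499, 5431 and 9935 in unstimulated and 4772, 9342 and 14482 in stimulated BMDM. The groups overlapped, with 5 of 12 stimulated libraries below every unstimulated one and 4 of 11 unstimulated libraries above every stimulated one, and the difference was -0.86 (SE 0.24, adjusted p = 0.045). The call was close to the threshold and was lost without any 1 of 16 of the 23 libraries, at adjusted p from 0.051 to 0.10, and with a replicate block (adjusted p = 0.057), but without the 3 control libraries the difference was -0.99 (SE 0.26, adjusted p = 0.014).

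Without those 3 libraries 3 of 10 members passed, all lower on stimulation, against 7.04% of genes: Klf2, Klf10 and Klf11. Klf10 had ranks of 997, 2974.5 and 7310 in stimulated BMDM beside the 177, 1691 and 3699 of unstimulated BMDM, a difference of -1.35 (SE 0.42, adjusted p = 0.067) with all libraries and -1.93 (SE 0.39, adjusted p = 0.0015) without the 3. Klf11 had ranks of 3291, 6483 and 20585 in stimulated BMDM, a difference of -1.02 (SE 0.37, adjusted p = 0.13) and -1.43 (SE 0.37, adjusted p = 0.013). For these 2 genes the promoter stood lower in stimulated BMDM by the medians in both settings, and the call rested on leaving the 3 libraries out.

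Klf4 and Klf6 had medians nearer the top in stimulated BMDM, 1386 against 2293 and 2037 against 3792, with differences of 0.99 (SE 0.39, adjusted p = 0.17) and 1.29 (SE 0.68, adjusted p = 0.32) that did not pass. For Klf6 the best stimulated rank, 21, was the strongest place reached by any member, and the stimulated ranks ran to 4075. The other members had differences between -0.84 for Klf7 and 0.11 for Klf13. Within control and within diabetic mice no member passed, with Klf2 at -0.51 (SE 0.34) and -1.21 (SE 0.35, adjusted p = 0.054), and the difference in the stimulation effect between diabetic and control libraries did not pass for any member. Without the 3 control libraries Klf10 passed within control (-2.90, adjusted p = 0.0069) and Klf2 within diabetic libraries (-1.21, adjusted p = 0.043).

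**Figure D5:**
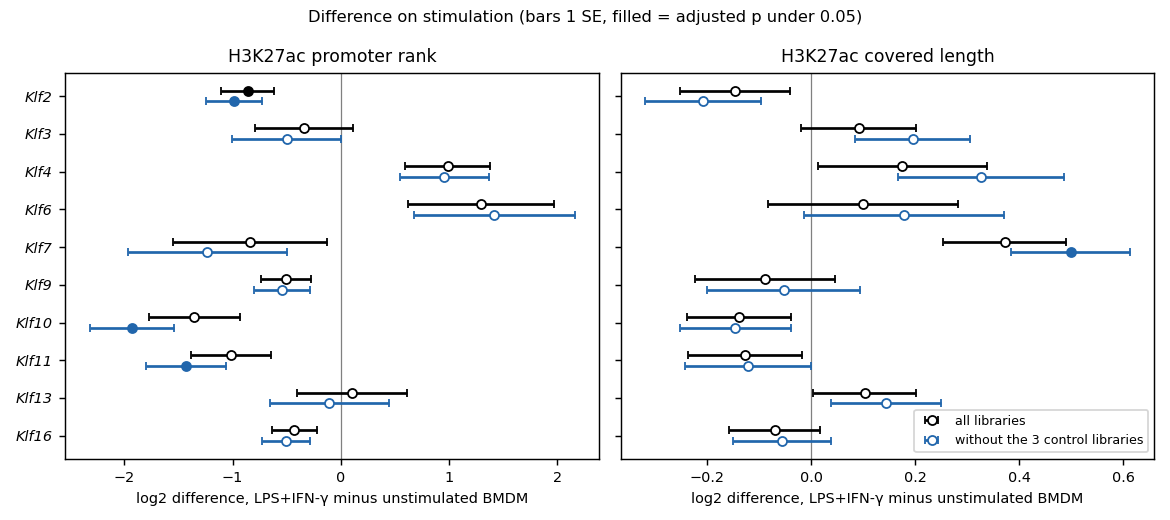
Points give the log2 difference between LPS+IFN-γ and unstimulated BMDM for each Klf gene in H3K27ac promoter rank and covered length, with all libraries in black and without the 3 control libraries in blue, bars of 1 SE and filled points where the adjusted p was under 0.05. Klf2 is filled in both settings, and Klf10, Klf11 and the covered length of Klf7 in blue alone.

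In covered length no member passed on stimulation, against 3% of genes, and 1 of 10 had an unadjusted p under 0.05. That was Klf7, with 4.59, 6.32 and 7.95 kb in stimulated and 3.62, 4.41 and 8.25 kb in unstimulated BMDM, a difference of 0.37 (SE 0.12, adjusted p = 0.081). Of the 12 stimulated libraries all lay above 8 of the 11 unstimulated ones, and without the 3 control libraries the difference was 0.50 (SE 0.11, adjusted p = 0.0046), where 8.64% of genes passed. No distal element passed on stimulation, in the Klf windows (0 of 17 tested, 0 at an unadjusted p under 0.05) or in the genome (0%, with 1190 of 10339 at an unadjusted p under 0.05). At Klf7 an intron element 83101 bp from the start was held by 0 of 11 unstimulated and 4 of 12 stimulated libraries, and at Klf2 an element on an exon of Gm10282, 14849 bp away, by 3 of 11 and 8 of 12, with exact adjusted p of 0.49 for both.

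The third question was whether diabetes had changed the Klf genes. In H3K27ac no member passed in HSC, unstimulated or stimulated BMDM in either measure, in the difference of the disease effect between HSC and BMDM, or in that of the stimulation effect between diabetic and control mice, and 0% of all genes passed in each of these. In HSC 1 of 10 members in each measure had an unadjusted p under 0.05 in limma's test, beside 290 of 13102 genes for rank and 1137 of 20186 for covered length. These were the rank of Klf9, with a best, median and worst of 1504, 2247.5 and 4276 in diabetic and 2504, 4366 and 7030 in control HSC (difference 0.75, SE 0.32, adjusted p = 1), and the covered length of Klf10, at 6.87, 10.5 and 11.6 kb against 6.53, 7.79 and 9.33 kb (difference 0.31, SE 0.14, adjusted p = 0.82). Both groups overlapped, and in BMDM none of the 10 had an unadjusted p under 0.05. No distal element passed Fisher's exact test in any of the 3 states, where again 0% of the elements tested did. With 5 or 6 libraries per group, an element could pass only if many others in the genome separated as fully. The test therefore cannot decide whether a single element differed. An unadjusted exact p under 0.05 was found for 16 of 2499 elements in HSC, 60 of 3930 in unstimulated BMDM and 12 of 2728 in stimulated BMDM. In the Klf windows 1 element had such a p. This was an element on an exon of Klf3, 2143 bp from the start, held by 5 of 6 control and 0 of 5 diabetic unstimulated BMDM libraries (exact p = 0.015, adjusted p = 0.98). Without the 3 libraries that went against their labels at Nos2, 3 control unstimulated libraries held it. All 3 of those libraries are control and so enter the disease comparisons in BMDM.

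H3K4me3 differed from H3K27ac in the order of these promoters. An H3K4me3 peak was present in all 35 lists for 8 members, in 34 for Klf7 and in 32 for Klf6. Klf6 had the lowest place of the 10 in HSC and in unstimulated BMDM but not in stimulated BMDM: its median rank was 17870.5 in HSC, 11560 in unstimulated and 5359.5 in stimulated BMDM, and it was among the 10000 strongest peaks in 0 of 12, 2 of 11 and 8 of 12 libraries. Its median H3K27ac rank in HSC was 800. Klf3 had the best median rank in HSC and in unstimulated BMDM, 635 and 991, and Klf4 in stimulated BMDM, 1897. Between HSC and unstimulated BMDM no member passed in rank, against 12.5% of 14196 genes, although 2 had an unadjusted p under 0.05 beside 4186 of all genes: Klf16 at 1.32 (SE 0.60, adjusted p = 0.13) and Klf4 at -1.28 (SE 0.63, adjusted p = 0.16). The Klf4 rank difference had the same sign in both marks, while its covered length difference was negative in H3K27ac and, with the scaling, positive in H3K4me3.

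In H3K4me3 covered length 4 of 10 members passed, all higher in HSC, against 35.9% of 21171 genes, but their direction depended on the scaling. Klf4 had 3.22, 6.32 and 8.91 kb in HSC and 2.13, 3.18 and 5.71 kb in unstimulated BMDM, and the differences were 0.70 for Klf4 (SE 0.16, adjusted p = 0.0014), 0.57 for Klf9, 0.41 for Klf3 and 0.40 for Klf13 with the scaling, and -0.27, -0.41, -0.58 and -0.61 without it. Without scaling the median of all genes was -0.68, with 12 genes called higher and 14236 lower in HSC (4405 and 3198 with the scaling), and relative to that median the 4 members stood at 0.41, 0.27, 0.09 and 0.07. With the logarithm of the number of peaks as a covariate none of the 10 passed. On stimulation no member passed in either measure of H3K4me3, where 0% of genes did, and 1 member in rank and 0 in covered length had an unadjusted p under 0.05 beside 836 and 232 of all genes; the 1 was Klf6, at 1.31 (SE 0.53, adjusted p = 0.75).

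For diabetes, no member passed in H3K4me3, beside 0.00704% of genes in rank in unstimulated BMDM, 0.0567% in covered length in HSC and 0% elsewhere. The smallest adjusted p of any member was 0.43, for the difference in the disease effect on Klf4 covered length between HSC and BMDM (-0.69, SE 0.32).

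Other genes of the pathway were read in the same fits. In H3K27ac rank between cell states, 2 of 11 other Klf and Sp genes tested (16 listed) passed as higher in HSC, 1 of 6 genes of the Mek5 kinase pathway and its Mef2 factors, which induce Klf2 and Klf4, was higher and 1 lower, 1 of 10 cofactors was higher and 2 lower, and 2 of 3 known Klf2 targets tested (5 listed) were lower, beside 34.1% of all genes called in either direction. Klf5 differed by 1.54 (SE 0.12, adjusted p = 1.4e-12), and Map2k5, the Mek5 kinase, by -1.15 (SE 0.45, adjusted p = 0.042). Ctbp1 and its paralogue Ctbp2, the corepressors that Klf3 binds, went opposite ways, at 1.29 (SE 0.29, adjusted p = 0.00059) and -1.29 (SE 0.25, adjusted p = 9.2e-05). Wwp1, a ubiquitin ligase that acts on Klf factors, differed by -2.03 (SE 0.55, adjusted p = 0.0038). Others that passed, named after their values were seen, were Klf1, the erythroid factor, at 0.58, Mef2b at 0.78, and the targets S1pr1, a sphingosine 1-phosphate receptor, at -0.70 and Thbd, thrombomodulin, at -0.57.

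In H3K27ac covered length, 4 of 16 other Klf and Sp genes were higher in HSC and 1 lower, 1 of 6 kinase pathway genes was higher and 3 lower, and 1 of 10 cofactors was higher and 3 lower, beside 47.6% of all genes. The largest differences among these family, kinase pathway and cofactor genes were those of Map2k5 at -1.02, Kat2b, a histone acetyltransferase, at 0.86, Sp9 at -0.82 and Ctbp2 at -0.81. On stimulation no family, kinase or cofactor gene passed in limma's test, and of the targets Itgb7, an integrin gene, rose by 0.71 (SE 0.16, adjusted p = 0.013) in rank and Nos3, the endothelial nitric oxide synthase, fell by 0.43 in covered length (adjusted p = 0.049). In H3K4me3 rank between cell states, Sp1 at 2.11 and Sp3 at 1.68 were higher in HSC, and Klf8 at -0.63 and S1pr1 at -1.54 lower. In H3K4me3 covered length, 6 of 16 family genes, 6 of 10 cofactors and 1 of 5 targets were higher, and 1 family and 1 kinase pathway gene lower, beside 35.9% of all genes, with the scaling on which the direction of the members depended.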

How the data were processed

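H3K27ac and H3K4me3 peaks were available for 70 libraries. The submitters' processing notes name Trim Galore 0.3.3, cutadapt 1.8, FastQC 0.11.3, Bowtie2 2.2.6, Picard 2.18.14 and 2.19.2, bedtools 2.19.1 and MACS2 2.2.7.1 with GRCm38 and mm10; caller settings were not given in those notes. Peaks were called by the authors in each library alone against input. The deposited −log10 p-value and −log10 q-value of a peak are relative to its own library, so peaks were compared by rank and by interval, and read depth is unknown. Ranks past 20000 and promoters with no peak were set to 20000, covered length was scaled to the median total of the mark with 0.5 kb added, and genes needed a value in 5 libraries.

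limma 3.58.1 (R 4.3.3) was fitted with trend to all protein-coding genes by group, with 7 contrasts per mark and measure and Benjamini-Hochberg adjustment over genes. Elements held by at least 2 libraries were compared by two-sided Fisher's exact tests, adjusted over those that could reach an unadjusted p of 0.05. Scripts were tested on simulated data. Members, lists and motifs were chosen with earlier results of these data known. All 10 members were named with values, with at most 5 called genes of the lists per contrast and 3 elements per member and contrast; elements not called were named after their values were seen. The methods of the study count individual animals as n, but the labels do not tie a library to an animal. Intervals shared exactly between lists were too few for any list to be a copy. The result of 1 listed gene is not reported here.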

Additional observations from a re-analysis of the deposited data

Results flagged for a closer look

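Of 240 groups of 5 or 6 libraries examined, 20 had 1 library far from the others by Dixon's ratio, where chance alone singles out about 1 in 20. Of the 20, 10 were promoter ranks and 10 scaled covered lengths.

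In promoter rank, 9 of the 10 stood nearer the top than the rest of their group, and ranks past 20000 were counted as 20000. Klf3 H3K27ac in control unstimulated BMDM replicate 2 was at 79 against 1061 to 4757 in the rest of its group, and Klf3 H3K4me3 in control stimulated BMDM replicate 1 was at 135 against 1369 to 4086 in the rest of its group. Klf4 H3K4me3 in control HSC replicate 6 was at 943 against 5020 to 10441 in the rest of its group, and Klf6 H3K27ac in control stimulated BMDM replicate 1 was at 21 against 2187 to 4075 in the rest of its group. Klf6 H3K4me3 in control stimulated BMDM replicate 1 was at 82 against 4602 to 20000 in the rest of its group, and Klf6 H3K4me3 in control unstimulated BMDM replicate 1 was at 3612 against 11477 to 20000 in the rest of its group. Klf11 H3K4me3 in control HSC replicate 5 was at 99 against 1603 to 6124 in the rest of its group, and Klf13 H3K4me3 in control stimulated BMDM replicate 3 was at 241 against 2212 to 3749 in the rest of its group. Klf13 H3K4me3 in control HSC replicate 1 was at 5145 against 871 to 1621 in the rest of its group, and Klf16 H3K4me3 in control HSC replicate 6 was at 50 against 1181 to 4397 in the rest of its group.

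In covered length, 9 of the 10 were higher than the rest of their group. Klf3 H3K27ac in control unstimulated BMDM replicate 5 was at 12.7 kb against 6.85 to 8.96 kb in the rest of its group, and Klf3 H3K4me3 in diabetic HSC replicate 6 was at 11.2 kb against 4.66 to 6.08 kb in the rest of its group. Klf4 H3K27ac in control unstimulated BMDM replicate 5 was at 11.7 kb against 4.22 to 6.95 kb in the rest of its group, and Klf4 H3K4me3 in control unstimulated BMDM replicate 4 was at 5.49 kb against 2.13 to 3.18 kb in the rest of its group. Klf7 H3K27ac in diabetic unstimulated BMDM replicate 4 was at 5.1 kb against 4.19 to 4.37 kb in the rest of its group, and Klf7 H3K27ac in control unstimulated BMDM replicate 5 was at 8.25 kb against 3.62 to 5.2 kb in the rest of its group. Klf7 H3K4me3 in control HSC replicate 2 was at 5.51 kb against 1.67 to 3.1 kb in the rest of its group, and Klf10 H3K4me3 in diabetic HSC replicate 6 was at 17 kb against 3.75 to 5.35 kb in the rest of its group. Klf13 H3K4me3 in control HSC replicate 6 was at 11.1 kb against 7.55 to 8.43 kb in the rest of its group, and Klf16 H3K4me3 in diabetic stimulated BMDM replicate 3 was at 6.42 kb against 9.52 to 10.6 kb in the rest of its group. The list of diabetic HSC replicate 6 in H3K4me3 was the shortest of all, with 13730 peaks, and before scaling it covered 1.25 kb at Klf3, the lowest of its group, and 1.90 kb at Klf10.

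Control unstimulated BMDM replicate 5, 1 of the 3 libraries that went against their labels at Nos2, was the highest of its group in H3K27ac covered length at Klf3, Klf4 and Klf7. Control stimulated BMDM replicate 1 had the strongest Klf6 promoter in both marks, at rank 21 and 82. What these libraries share beyond the values given was not tested.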

How the results depend on the processing

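Counts of Klf genes called were recomputed under 288 alternatives other than leaving out 1 library, and 271 stayed within 1.5 times the value reported. A count of 0 that remained 0 was taken as staying. Most of the counts were 0 to begin with, mainly in contrasts where almost no gene passed, so this share says little about the calls made. The 1 member called in H3K27ac rank on stimulation became 0 with a replicate block, with no filter on low values, with a rank limit of 10000, within control and within diabetic libraries, 2 with ranks taken as percentiles among genes, and 3 without the 3 control BMDM libraries. The 6 called in H3K27ac rank between cell states became 2 within diabetic libraries, where Klf11 and Klf9 passed, and within control libraries Klf6 and Klf9 did not pass. For H3K27ac covered length on stimulation, 0 became 1 with the logarithm of peak number as covariate and 1 without the 3 control libraries. For H3K4me3 covered length between cell states, 4 became 0 with that covariate, 0 within diabetic libraries, 7 without scaling and 2 among the 20000 strongest peaks, all of the 7 and 2 lower in HSC. There the differences of Klf3, Klf4, Klf9 and Klf13 reversed, to -0.58, -0.27, -0.41 and -0.61 without scaling and to -0.18, -0.10, -0.37 and -0.14 among the 20000 strongest peaks, where the median of all genes was -0.24; for H3K27ac that median was -0.08 and 0.14. The 6 distal elements became 2, 11 and 1 with 10000 peaks, 40000 peaks and 50% of an element covered. Causes were not tested.

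With 1 library left out, counts ran from 0 to 2 for H3K27ac rank on stimulation, from 5 to 6 for rank and from 6 to 7 for covered length between cell states, from 0 to 1 for covered length on stimulation, from 4 to 5 for H3K4me3 covered length between cell states and from 4 to 6 for distal elements, and stayed at 0 to 0 for all others. The Klf2 call on stimulation was lost without any of the diabetic stimulated replicates 1 to 4, diabetic unstimulated 2, 5 and 6, control stimulated 1 to 4 and 6, or control unstimulated 2 to 5. The Klf6 call between cell states was lost without diabetic unstimulated 2, 4 or 6, diabetic HSC 2, 3 or 6, control unstimulated 2, 4 or 6, or control HSC 4 or 6. The Klf10 element was lost without any HSC library, diabetic unstimulated 1, 2 or 6 or control unstimulated 1 or 3, and the Klf13 exon element without diabetic HSC 3, 5 or 6 or control HSC 1, 4 or 6. Libraries of the same number did not deviate together throughout (mean correlation of same-numbered libraries from -0.081 between diabetic HSC and stimulated BMDM to 0.16 between diabetic stimulated and unstimulated BMDM in H3K27ac), and not every pair reached 0.1, so the numbers were not taken to pair the samples, although all same-numbered diabetic stimulated and unstimulated BMDM pairs were above 0 (0.052 to 0.353). The replicate block ended the Klf2 call, at an adjusted p of 0.057, gave 5 called in place of 4 in H3K4me3 covered length between cell states, and ended no other call of a member. Peak lists carry no read depth, so a promoter or element low in a list could not be told from one measured at low depth.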
